A study of Solanum tuberosum and Solanum acaule with 12 samples.

Results

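The loci described here are 33 loci of the wild potato Solanum acaule whose transcript signal was at least 4-fold lower in every library after freezing than in every control library. A locus is the sum of all assembled transcripts that share an assembly number. Members were chosen as loci with at least 1 transcript in the deposited placement table, a lowest control value of at least 10 and a highest freezing value of at most 25.0% of that lowest control value. Of 70880 S. acaule loci, 9186 had a placement and a lowest control value of at least 10, and 33 of these, or 0.359%, met the limit. The same rule turned round, for loci raised at least 4-fold, found 18. Another 5 loci met the limits on signal but had no transcript in the placement table, and they are not members. The members were thus selected on their measured signal in these same control and freezing libraries, so their lower signal after freezing is a description and carries no test.

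S. acaule is a wild allotetraploid potato of the Andes that is known for its frost tolerance, and an allotetraploid carries the chromosomes of a pair of ancestral genomes. In plants, cold lowers many transcripts that serve growth and photosynthesis while it raises others that protect cells, and the level of a transcript follows both its synthesis and its decay. The deposited tables give each locus an identifier and a position but pair none with a gene or protein name, so no function is assigned here and the labelled tissue could not be checked against markers.

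The libraries were made from S. acaule shoots. The 3 control plants were kept in long days, and the 3 freezing replicates were shoot explants put into a growth chamber that cooled from 22 °C to -4 °C by 2 °C each hour. As described, the groups may also differ in material and chamber, and such differences cannot be told apart from freezing. The labels call the replicates biological and name no clone, time of day or time held at the lowest temperature. Atlantic potato, the other species of the series, has its own identifiers and was normalized apart, so it is not compared here. Signal has the form of TPM, a level per transcript length, divided by a library scaling factor. Sequencing depth is unknown, and in a bulk sample fewer cells of a type and less RNA per cell cannot be told apart.

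Control replicate 3 was unlike every other library. It held 6701 transcripts at a signal of 5 or more that were under 0.5 in each of the other 5 libraries, against 0 to 12 such transcripts in any other library. Among the 235 transcripts of the member loci there were 23 of this kind in control replicate 3 and 0 in each of the other 5. They belonged to 19 members. They supplied over 50% of the control replicate 3 signal of 10 members, and 95.3% in AcauleEVm016813. Their part in the results below was not tested beyond leaving that library out. Summed over a locus, control replicate 3 was the lowest control for 13 members, control replicate 1 for 18 and control replicate 2 for 2. The 3 controls lay within 1.5-fold of each other in 12 members, or 36.4%. This held for 50.1% of the placed loci at 10 or more in every control.

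The median member had a mean control signal of 51.5 and a mean signal after freezing of 2.67. The 9186 placed loci at 10 or more in every control had a median control signal of 31.2. Mean control signal ran from 13.9 to 1574 over the members, and mean signal after freezing from 0.315 to 141. After freezing 17 members were under a mean of 3 and 4 of these were under 1. The ratio of lowest control to highest freezing value had a median of 7.18, with 13 members at 10 or more, 4 at 20 or more and 7 under 5.

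**Figure D1:**
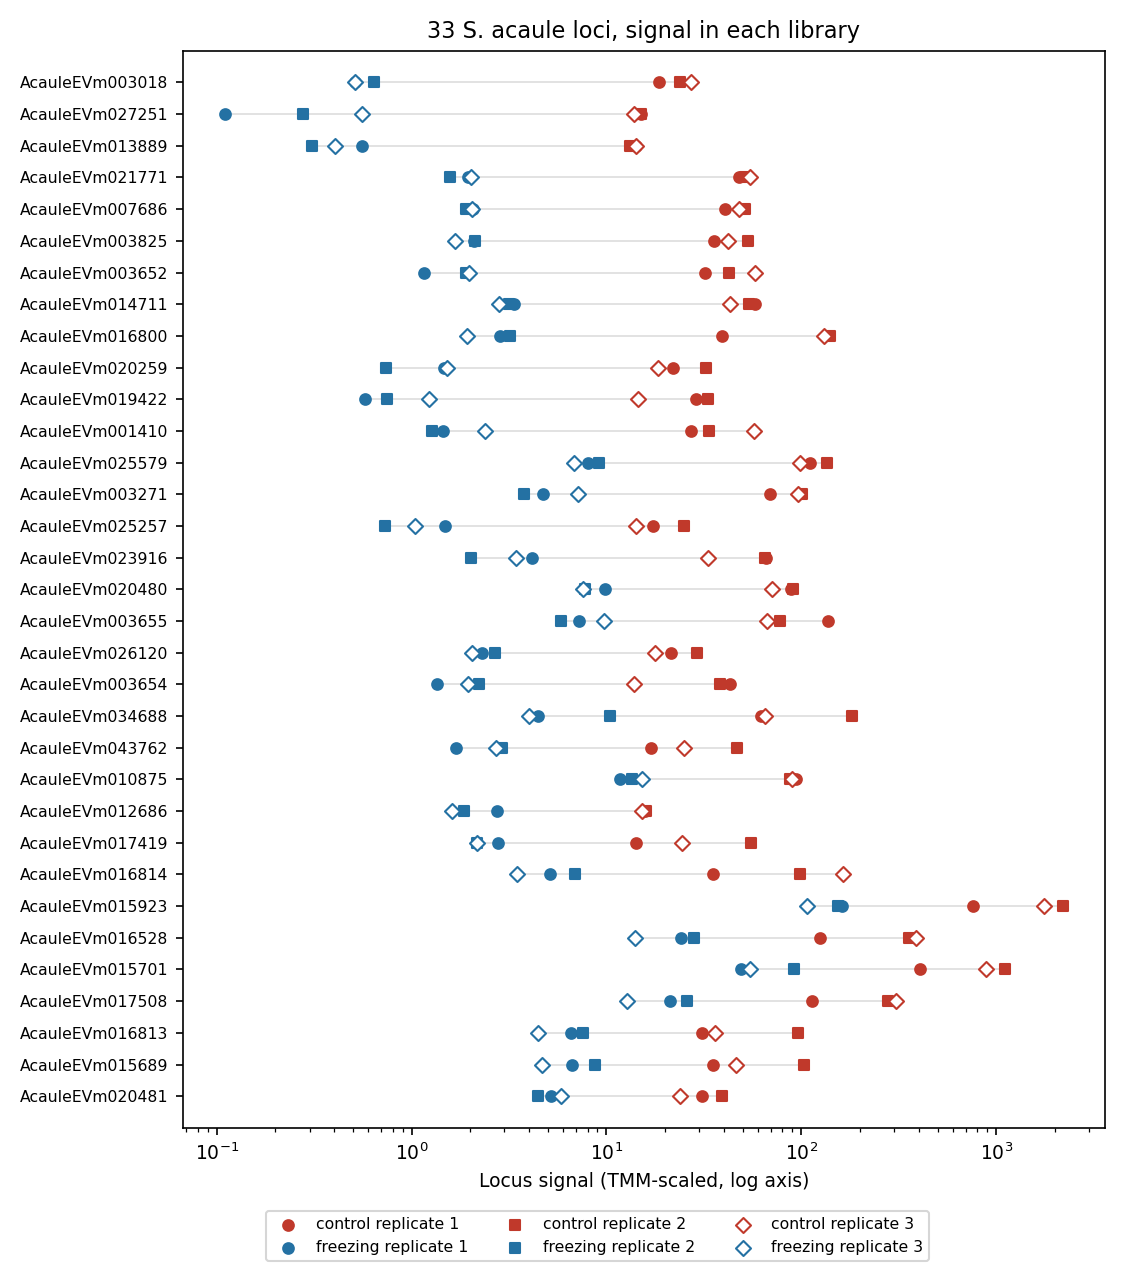
Signal of each of the 33 members in each library, on a log axis, with control replicates in red and freezing replicates in blue. Members are ordered from the largest ratio of lowest control to highest freezing value at the top, 29.1, to the smallest, 4.06.

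The members with the largest ratios had low to moderate control signal and came close to undetected after freezing. AcauleEVm003018, placed on chromosome 6 of set 2 at 35262973 to 35266583, measured 18.7, 23.7 and 27.0 in control replicates 1 to 3 and 0.511, 0.641 and 0.511 after freezing. Its mean went from 23.1 ± 4.20 to 0.554 ± 0.0751 (SD, n = 3 per group), a 41.8-fold ratio of means. AcauleEVm027251 was a locus of 1 transcript on chromosome 3 of set 2 at 56788969 to 56789775. It measured 15.1, 15.0 and 13.9 in control and 0.110, 0.279 and 0.556 after freezing, so its controls lay within a narrow range while its freezing values spread widely at a level near 0. AcauleEVm013889 on chromosome 8 measured 14.2, 13.2 and 14.2 in control and 0.554, 0.307 and 0.404 after freezing. These 3 loci had the lowest mean signals of all members after freezing.

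The next members in the order had higher signal in both conditions. AcauleEVm007686, on chromosome 4 of both sets, measured 40.6, 51.5 and 48.1 in control and 2.07, 1.89 and 2.06 after freezing. AcauleEVm021771, on chromosome 9 of both sets, had freezing values from 1.57 to 2.03 against 48.2 to 54.7 in control. AcauleEVm003825 on chromosome 10 went from 43.7 ± 8.96 to 1.96 ± 0.251 and AcauleEVm014711 on chromosome 11 from 51.7 ± 7.90 to 3.10 ± 0.277 (SD, n = 3 per group). In each of these loci the spread between freezing libraries was under a signal of 1. AcauleEVm020259 on chromosome 5 was lower in control, at 21.9, 32.6 and 18.5, and measured 1.47, 0.738 and 1.53 after freezing.

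The most abundant members kept the most signal after freezing. AcauleEVm015923, placed on chromosome 5 of set 1 at 50872033 to 50889790 and on set 2 at 52227290 to 52238975, measured 759, 2198 and 1765 in control and 162, 155 and 106 after freezing. It alone held 28.4% to 38.0% of the summed member signal in the control libraries. AcauleEVm016528, on chromosome 3 of set 1 at 49025018 to 49031068, measured 125, 355 and 390 in control and 24.2, 27.99 and 14.1 after freezing. AcauleEVm017508, on chromosome 1 of set 1 at 67154650 to 67157155, measured 114, 279 and 308 in control and 21.3, 25.9 and 12.7 after freezing. In all 3 loci control replicate 1 was the lowest control by far and freezing replicate 3 was the lowest library of all.

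Among further abundant members, AcauleEVm010875 and AcauleEVm025579 had steadier controls. AcauleEVm010875, on chromosome 6 of set 2, measured 94.0, 87.3 and 89.4 in control and 11.7, 13.5 and 15.3 after freezing, the narrowest relative spread of controls among the members above a signal of 50. Within these sums AcauleEVm010875t3 measured 24.5, 21.6 and 0 in control and AcauleEVm010875t1 measured 0, 0 and 25.4. AcauleEVm025579 on chromosome 8 went from 115 ± 19.2 to 8.01 ± 1.18 and AcauleEVm003655 on chromosome 4 from 93.8 ± 38.2 to 7.59 ± 1.99 (SD, n = 3 per group). The controls of AcauleEVm003655 were less steady, at 137, 77.4 and 66.5. Summed over all 33 members, signal was 2672, 5780 and 4770 in control replicates 1 to 3 and 361, 411 and 291 after freezing. Without AcauleEVm015923 these sums were 1913, 3582 and 3005 against 199, 257 and 184. The members made up 0.255% to 0.577% of a control library and 0.0284% to 0.0425% of a freezing library.

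Loci on either side of the limit differed little. Just inside were AcauleEVm020481, AcauleEVm015689 and AcauleEVm016813, with ratios of 4.06, 4.07 and 4.08. Just outside were AcauleEVm019697, AcauleEVm033248 and AcauleEVm017814, with ratios of 3.91, 3.87 and 3.86. AcauleEVm017814 measured 252, 692 and 410 in control and 53.4, 65.3 and 26.6 after freezing and was placed on the same gene model as the member AcauleEVm016528, the model named g28611.

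Fitted with limma on log2(signal + 1) across 29331 loci, the members had a median log2 fold change of -3.53, from -2.36 to -4.64, against 0.04 over all loci tested. Of the 33 members 29 were called lower at a limma adjusted p under 0.05, where 0.273% of all loci tested were called lower. The 4 members not called were AcauleEVm015689, AcauleEVm016813, AcauleEVm016814 and AcauleEVm017419, with limma adjusted p from 0.0510 to 0.0597. These calls rest on the contrast that chose the members and add nothing to it. The count was 32 without control replicate 3, where 1.3% of all loci were called lower. It was 20 without control replicate 1, where 0.113% of all loci were called lower, and 2 without control replicate 2, where 0.00682% were. Without freezing replicate 1, 2 or 3 it was 7, 3 and 7, where 0.0239%, 0.0102% and 0.0239% of all loci were called lower. A block for the replicate number left 0 members and 0% of all loci called by limma, with all 33 members lower at an unadjusted p under 0.05, as were 7.71% of all loci.

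The placements of the members were uneven along the chromosomes. Chromosome 3 carried 10 members, 30.3% of them, against 11.8% of the 9186 placed loci at 10 or more in every control. Chromosomes 1 and 11 carried 4 each, chromosome 7 carried 0 and the other chromosomes 1 to 3. A member placed on more than 1 chromosome counts on each, which concerns 3 members. With placements of the top score of 40 only, chromosome 3 held 7 members. Sets 1 and 2 are the numbers that follow the chromosome in the placement table, which does not say what they stand for. Of the members 22 were placed on both sets, 3 on set 1 only and 8 on set 2 only. These shares were 66.7%, 9.09% and 24.2%, against 78.7%, 8.15% and 13.2% of the placed loci at 10 or more in every control. No test was run on these shares, and neighbouring members are not independent.

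On chromosome 3 of set 2, 7 members were placed within 21541 bases, from 1002682 to 1024222. They are AcauleEVm015689, AcauleEVm015701, AcauleEVm016800, AcauleEVm016813, AcauleEVm016814, AcauleEVm034688 and AcauleEVm043762. They lie on 4 gene models of the table, and 5 of them overlap the same model, g29369, so they cannot be read as 7 separate genes. The way reads were divided among near-identical sequences is not given here, so the levels of these loci are uncertain one by one. Their summed signal was 624, 1783 and 1354 in control replicates 1 to 3 and 76.6, 132 and 75.8 after freezing, which is 1254 ± 586 against 94.7 ± 32.1 (SD, n = 3 per group).

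AcauleEVm015701 supplied most of that sum. It measured 405, 1116 and 888 in control and 49.2, 91.9 and 54.6 after freezing. Only 19.95% of its control signal was on transcripts with a placement. It was also placed on chromosome 3 of set 1, at 905037 to 923380, the only locus of the 7 with a copy there. AcauleEVm016800, at 1023241 to 1024222 on the model g29376, had the largest ratio of the group, with 39.1, 140 and 130 in control and 2.86, 3.20 and 1.94 after freezing. Of the 130 in control replicate 3, AcauleEVm016800t3 supplied 95.9, a transcript that was at 0 in the other 5 libraries.

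The other 5 loci overlap g29369. AcauleEVm034688 measured 62.0, 183 and 65.1 in control and 4.45, 10.5 and 3.99 after freezing. AcauleEVm043762 measured 17.0, 46.7 and 25.0 in control and 1.69, 2.93 and 2.71 after freezing. AcauleEVm015689 and AcauleEVm016813 went from 61.9 ± 36.8 to 6.68 ± 2.01 and from 54.5 ± 36.2 to 6.22 ± 1.59 (SD, n = 3 per group). Control replicate 2 was the highest control in these 4 loci and freezing replicate 2 the highest freezing library. AcauleEVm016814 differed in that control replicate 3 was highest, at 35.1, 98.7 and 163 in control against 5.11, 6.93 and 3.46 after freezing. The position of AcauleEVm016813 is weak, since its placed transcripts carried 0% of its control signal. For AcauleEVm015689 and AcauleEVm016814 the placed share was 25.4% and 41.8%.

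Other loci placed inside the same stretch, or in its counterpart on set 1, were mostly lower after freezing without reaching the limit. There were 10 such loci, of which 8 were tested, and in 6 of these 8 every freezing value was under every control value, against 10.9% of all loci tested. AcauleEVm025317, on g29369, measured 352, 763 and 97.2 in control and 35.4, 59.0 and 27.8 after freezing, and it missed the limit through its low control replicate 3. AcauleEVm035385 at 1007773 to 1008114 measured 13.9, 80.0 and 227 in control and 3.44, 7.98 and 6.11 after freezing. On set 1, AcauleEVm017390 was the most abundant, with 658, 1884 and 2841 in control and 443, 556 and 253 after freezing. It was lower in every freezing library than in every control, with 658 and 556 as the nearest values. These values are sums over whole loci. All transcripts placed on the set 1 model g26467, from 6 loci, together measured 117, 359 and 799 in control replicates 1 to 3. Most signal of AcauleEVm017390 was thus on transcripts not placed there. Limma called 0 of these 8 loci (adjusted p from 0.0807 to 0.459), with 7 of the 8 lower at an unadjusted p under 0.05, against 7.26% of all loci tested. These loci were chosen after their values were seen, for lying beside members.

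**Figure D2:**
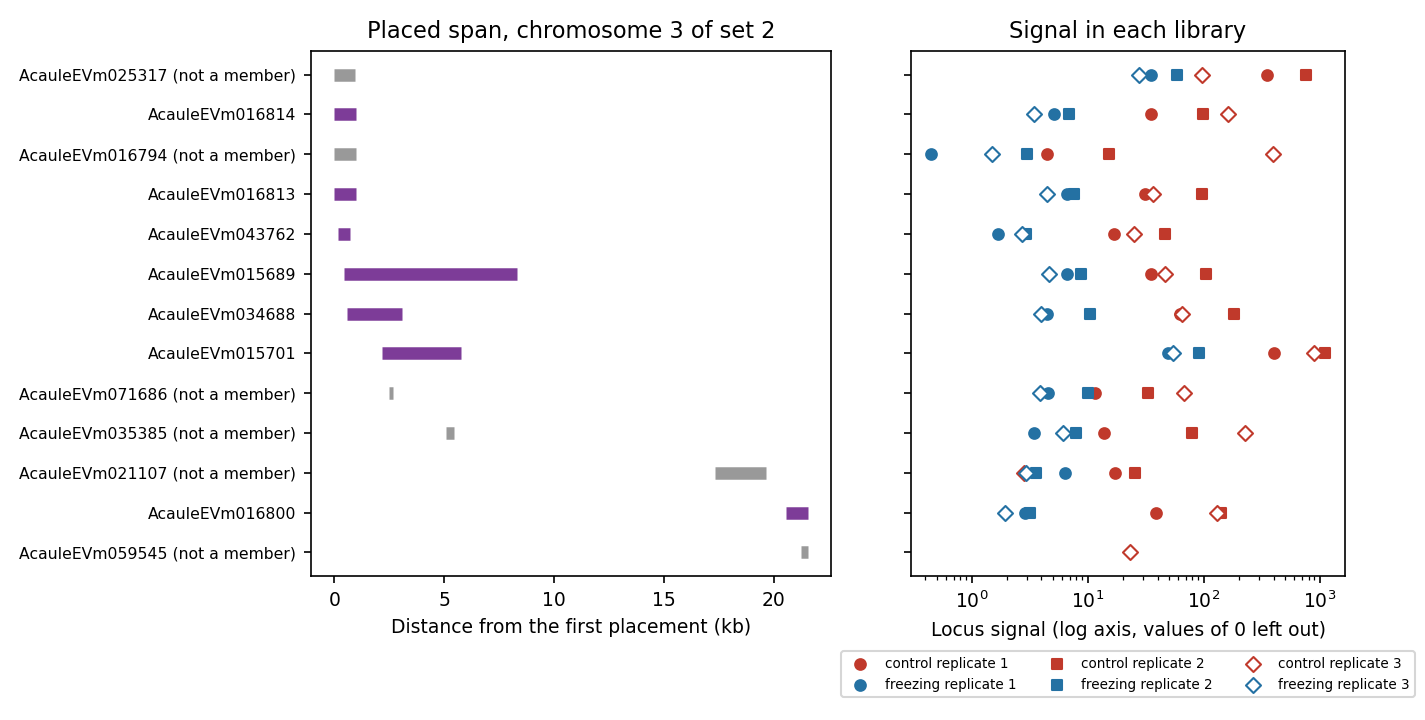
Left, placed span of each locus in the stretch on chromosome 3 of set 2, as distance in kb from its first placement, with members in purple and other loci in grey. Right, signal of the same loci in each library on a log axis; AcauleEVm059545 has a point in control replicate 3 only, since it was 0 in the other libraries.

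Other members lay near each other in 3 places. AcauleEVm003652 and AcauleEVm003654 overlap on chromosome 11 of set 1, on the model g5741, at 37034346 to 37037861 and 37034246 to 37037808. The former measured 32.2, 42.8 and 57.7 in control and 1.16, 1.91 and 1.97 after freezing. The latter measured 43.3, 38.3 and 13.9 in control and 1.36, 2.21 and 1.96 after freezing, so control replicate 3 was the highest control at the former and the lowest at the latter. AcauleEVm003271 and AcauleEVm017508 were 58073 bases apart on chromosome 1 of set 1 with 6 gene models between them. AcauleEVm010875 and AcauleEVm026120 were 60350 bases apart on chromosome 6 of set 2 with 7 gene models between. In all 24 pairs of members were within 100000 bases of each other, and 13 of the 33 members were part of such a pair. Of the pairs 21 were those among the 7 loci on chromosome 3.

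The controls of the members fell into 2 kinds, a division made after their values were seen. In 11 members control replicate 2 was at least 2-fold above control replicate 1, by 2.46-fold to 3.88-fold, and control replicate 1 was the lowest control in all 11. Only 6.19% of the placed loci at 10 or more in every control had such a ratio, and their median ratio was 1.03. The 11 were the 7 loci on chromosome 3 together with AcauleEVm015923, AcauleEVm016528, AcauleEVm017508 and AcauleEVm017419. AcauleEVm017419 on chromosome 11 measured 14.2, 55.2 and 24.4 in control and 2.78, 2.18 and 2.17 after freezing. These 11 held 76.8% of the summed control signal of the members. In the other 22 the ratio ran from 0.563 to 1.498. The rule compares the lowest control with the highest freezing value, and that ratio had a median of 4.67 in the 11 and 11.1 in the 22. The lowest freezing library was replicate 3 in 9 of the 11 and in 6 of the 22.

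**Figure D3:**
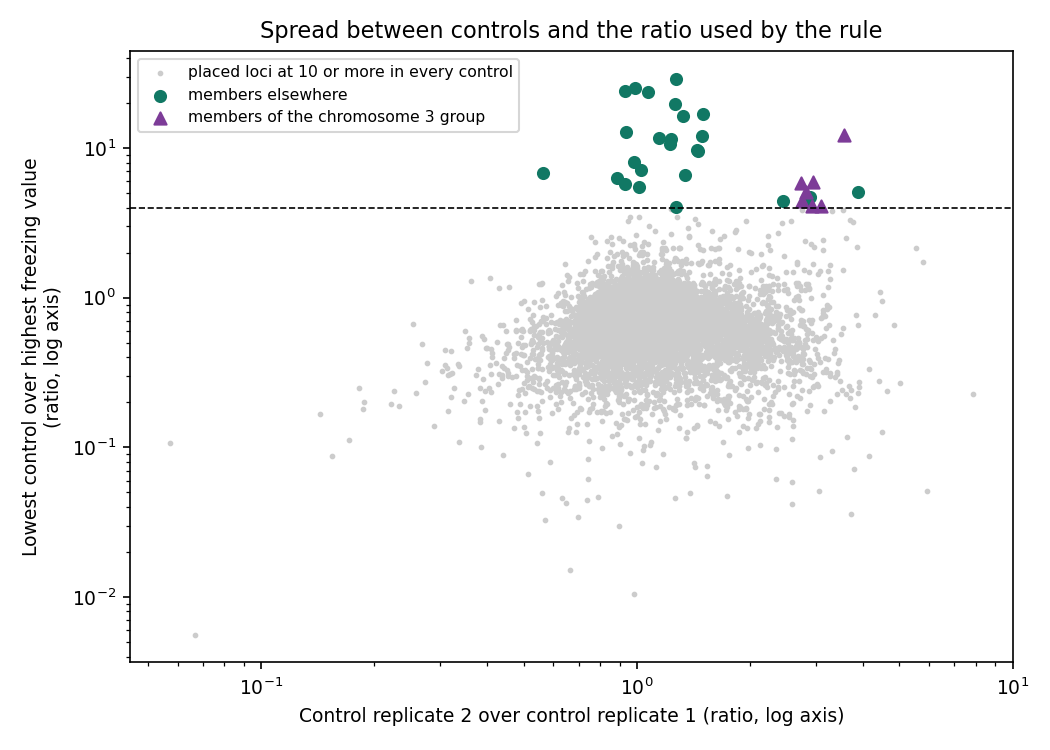
Ratio of lowest control to highest freezing value against the ratio of control replicate 2 to control replicate 1, both on log axes, for the placed loci at 10 or more in every control (grey) and the members (coloured). The 7 members on chromosome 3 (triangles) and 4 others lie to the right at 2.46 or more, and the other 22 lie between 0.563 and 1.498; the dashed line marks the 4-fold limit.

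The copies on sets 1 and 2 were lower together where both could be followed. Of 22 members with transcripts placed on each set, 12 had both copies at 1 or more in every control library. In 11 of these 12 every freezing value was under every control value on both sets, against 3.21% of all loci with such copies. Without control replicate 3 it was 17 of 17, against 10.3% of all such loci. The copies add up to much of the sum that chose the members, so these counts describe the members. The exception was AcauleEVm020481 on chromosome 1, whose set 2 copy measured 16.9 and 20.4 in control replicates 1 and 2 but 2.71 in control replicate 3, under its freezing values of 3.70, 3.04 and 3.77.

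The balance between the copies differed strongly in control replicate 3. Of the 21 members with signal on these copies, 12 had the larger copy on set 1 and 9 on set 2 by the mean over control replicates 1 and 2. At AcauleEVm021771, counted on set 1, those libraries lay on either side of 50%, with 45.6% and 53.6% on set 2. In control replicate 3 the larger copy was on the other set in 11 of the 21, or 52.4%, against 31.7% of the 7098 placed loci at 10 or more in every control with both copies. The set 2 share was higher there than in both other controls in 15 members, or 71.4%, against 68.5% of those 7098 loci, and lower in 6. It moved by a median of 21.3 percentage points, against 19.98 points over those 7098 loci, whereas control replicates 1 and 2 differed by a median of 2.67 points in the members. AcauleEVm013889 changed over nearly whole. Its set 1 copy, at 47735450 to 47737217 on chromosome 8, measured 14.2 and 13.2 in control replicates 1 and 2 and 0.290 in control replicate 3. Its set 2 copy, at 52587668 to 52588873, was listed at 0 in control replicates 1 and 2 and at 13.9 in control replicate 3. The sums of 14.2, 13.2 and 14.2 hide this exchange.

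Members leaned to either set. In control AcauleEVm015923, AcauleEVm003271 and AcauleEVm013889 had the highest median ratios of set 1 over set 2, and AcauleEVm020259, AcauleEVm014711 and AcauleEVm003825 the lowest. AcauleEVm014711 had 90.9% and 89.2% of its copy signal on set 2 in control replicates 1 and 2, 37.1% in control replicate 3 and 88.5% to 94.8% after freezing. AcauleEVm003271 had under 0.1% on set 2 in control replicates 1 and 2 and 14.7% in control replicate 3. The set with the larger copy after freezing was the one of control replicates 1 and 2 in 17 of the 21 members. For AcauleEVm015923 these shares leave out the transcripts placed on both sets.

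**Figure D4:**
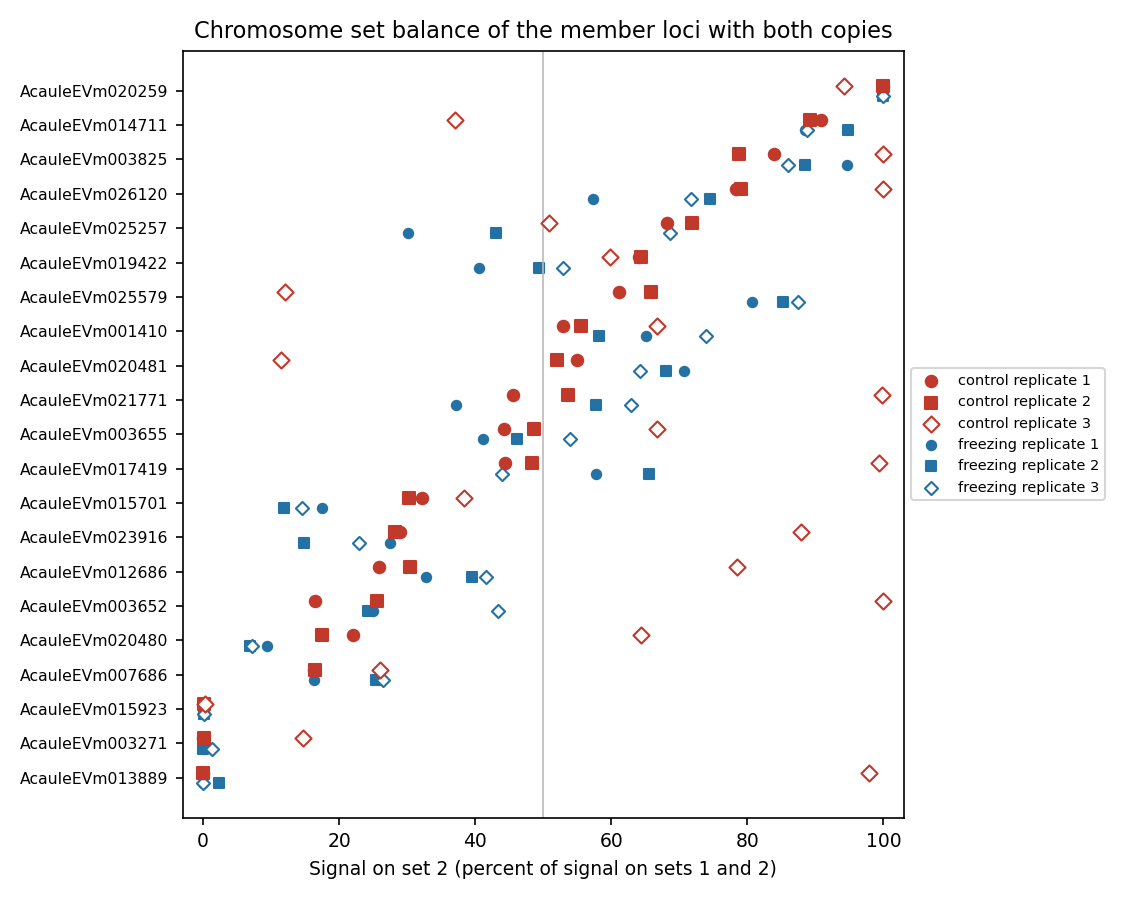
Share of the signal of sets 1 and 2 that lies on set 2, in percent, in each library for the 21 members with signal on both kinds of copy. Control replicate 3 (open red diamonds) lies across the line at 50% from the mean of the other controls in 11 members, among them AcauleEVm013889 at 97.95% against 0%.

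A change in balance after freezing was not shown. Limma called 0 of 10211 copy ratios, and thus 0 of the 15 members among them, while 3 of the 15 and 2.78% of all ratios had an unadjusted p under 0.05. With control replicate 3 left out limma again called 0, and 9 of the 15 members reached an unadjusted p under 0.05, as did 13.6% of all ratios. The ratio is poorly measured after freezing, since many member copies were then under a signal of 1, the pseudocount. This draws their log2 ratio towards 0, the value for equal copies. Stability of the balance is not shown by this.

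Transcripts of a member were mostly lower together. Among the 235 member transcripts 75, from 31 members, stood at 1 or more in every control library. In 69 of these 75 every freezing value was under every control value, against 12.5% of all such transcripts. Of the 75, 44 met the 4-fold limit on their own. The share of all transcripts that meet this limit was not computed. Member transcripts add up to the sums that chose the members, so these counts are a description. Without control replicate 3, every freezing value was under every control value in 119 of 120. The share over all transcripts was not computed without that library, so this count has no background beside it. Of the 120 transcripts at 1 or more in control replicates 1 and 2, 45 were under 1 in control replicate 3. A single member transcript at 1 or more was higher in every freezing library, AcauleEVm016528t4, at 0, 0.206 and 0.157 in control and at 1.15, 1.36 and 1.93 after freezing.

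The main transcript of a member, the most abundant in control, changed its share most in AcauleEVm025579, AcauleEVm020480 and AcauleEVm016813. In AcauleEVm025579 it held 61.1% and 65.9% in control replicates 1 and 2, 12% in control replicate 3 and 80.6% to 87.1% after freezing. In AcauleEVm020480 on chromosome 8 it held 63.3%, 68.8% and 5.87% in control and 79.8% to 82.4% after freezing. In AcauleEVm016813 it held 99.9%, 100% and 4.72% in control and 100% after freezing. In the first 2 loci the share was higher in every freezing library than in every control also without control replicate 3. In AcauleEVm016813 the difference lay in control replicate 3 alone.

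The remaining members were AcauleEVm001410, AcauleEVm012686, AcauleEVm019422, AcauleEVm023916, AcauleEVm025257 and AcauleEVm026120. Their control means ran from 15.7 to 54.8 and their means after freezing from 0.854 to 3.20. AcauleEVm012686 on chromosome 2 had the closest control sums of these, at 15.8, 16.0 and 15.1, with 2.75, 1.85 and 1.62 after freezing. Its set 2 share was 25.8% and 30.4% in control replicates 1 and 2 but 78.4% in control replicate 3. AcauleEVm019422 on chromosome 5 and AcauleEVm023916 on chromosome 1 were lowest in control replicate 3, at 14.4 and 33.3 against 29.0 and 66.1 in control replicate 1. AcauleEVm001410 on chromosome 3 stood highest in control replicate 3, at 27.3, 33.7 and 57.1. AcauleEVm025257 had 17 transcripts, placed on chromosomes 9 and 12, and AcauleEVm026120 was placed on chromosomes 6 and 12. Members had a median of 6 transcripts and the placed loci at 10 or more in every control a median of 8.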

How the data were processed

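Shoot RNA of 6 S. acaule libraries was analysed, 3 control and 3 freezing. The submitters' processing notes name Trimmomatic 0.39 and DESeq2 without saying what the latter was used for. How reads were aligned, assembled and quantified, and on which build, is not given in the sources used here. Per transcript, the authors deposited signal values that look like TPM over a TMM factor, as read from the values and table names, so depth is unknown. The deposited placement score, from 1 to 40, has no stated meaning. 0 value columns were without a sample.

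Transcripts were summed to loci with pandas 2.3.3. Loci reaching 1 in 3 or more libraries, 29331 in all, entered a limma 3.58.1 fit (R 4.3.3) of log2(signal + 1) with a variance trend. Tests were two-sided, with Benjamini-Hochberg adjustment over all of them. The step was tested on simulated data. Copies used transcripts placed on a single set. Fold changes on this scale understate those of low loci. The p-values reflect variation among these 6 libraries, which may be technical. Identifiers matched no gene name. Members and lists were chosen with earlier results of these data known. Named members are the 10 with the largest ratio, the 10 most abundant, the 3 on either side of the limit, neighbours, the 3 at either end of copy balance and the 3 with the largest change of the main transcript's share; the ratio fit called none to add. Others are named to account for every member, and the loci around the chromosome 3 members were chosen after their values were seen.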

Additional observations from a re-analysis of the deposited data

How the results depend on the processing

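Leaving out a library gave 34 to 76 members, 2 to 32 members called lower by limma and a median log2 fold change of -3.59 to -3.32. Members with both copies lower ran from 11 of 12 to 17 of 17, and transcripts lower from 69 of 75 to 119 of 120. Both upper ends came without control replicate 3, where more copies and transcripts stood at 1 or more in the controls kept. The largest shifts in the number of members were 76 without control replicate 1 and 58 without control replicate 3. Leaving out a library can only loosen the rule, so all 33 members stay by construction and the member count cannot fall. Every alternative kept the direction of all 33 members. The 4-fold gap that the rule demands fixed this in advance, so it adds no support. With the replicate block 0 of the 29 calls were left. A pseudocount of 0.1 gave a median log2 fold change of -3.96, by construction larger for low loci. Members were also chosen again without control replicate 3, an alternative added after the data were seen. Chromosome 3 then held 13 of 58 members, against 10 of 33 in the main set. Neighbouring pairs numbered 39 against 24, and a larger set can hold more pairs. Applied to placed transcripts as deposited, without summing, the rule found 23 transcripts of 21 loci, of which 11 are among the 33 members. Other limits of the rule gave 22 to 49 members. With no filter on low values limma called 20 members. That fit called 44 loci in either direction, against 163 in the main fit. The cause of the other shifts was not tested. Replicate numbers were not taken as pairs in the main fit, because the labels do not say what same-numbered libraries share. The deposited column headers give same-numbered control and freezing libraries a common code, without saying what it stands for. Deviations of same-numbered libraries correlated at 0.28, 0.27 and 0.04, and those of differently numbered libraries at -0.326 to 0.055. Pairing of the libraries is thus not excluded. With 3 replicates and unknown depth, values under 1 are poorly measured.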
